A study of Arabidopsis thaliana with 12 samples.

Results

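The genes described here are the 83 brightest named probes of an *Arabidopsis thaliana* expression array. They are the probes that the platform's annotation ties to exactly 1 gene and whose deposited intensity averaged above 1 over all 12 samples. Of 3439 probes, 692 carried 1 gene, 93 of these had a mean above 1, and 10 of the 93 were left out because they were set aside by name (LHB1B2, PSAN, PSBW, PSBY, PRK, AT1G74470, AT1G24360, AT4G31530, AT3G04650 and AT5G52810). The intensities themselves chose the members, so their brightness is a description. The comparison between the groups was not used to choose them, but the 10 left-out genes were named with that comparison known, and 4 of them passed its test. The brightness of a spot depends on its probe as well as on its transcript, so the order below is an order of spot intensities, not of transcript amounts between genes.

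One group was the laf6 mutant in ecotype Landsberg, which per the labels lacks the atABC1 transporter and was given 1 h of normal light following dark adaptation (6 samples). It was set against wild type plants of the same ecotype that were dark adapted (6 samples). Genotype and light changed together, so every difference is of both at once and their parts cannot be told apart. The labels give total RNA and name no tissue or plant age, and they do not say whether numbered samples came from separate plants. The p-values therefore rest on sample-to-sample spread that may be technical. The gene for atABC1 itself is not among the named probes, so the labels were not checked against it. In such bulk samples, fewer cells of a type and less RNA per cell cannot be told apart.

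Most plastid proteins are encoded in the nucleus, made in the cytosol and imported. Light is known to change the transcript levels of many of these nuclear genes, through photoreceptors, the circadian clock and signals that the plastid sends to the nucleus. The atABC1 protein is known as a plastid protein needed for iron-sulphur cluster assembly.

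Samples numbered 1 and 2, 3 and 4, or 5 and 6 of a group were averaged, which left 3 replicates per group. Sample medians lay between 0.161 and 0.1698 in laf6 and between 0.218 and 0.289 in wild type. Readings of 0 made up 14.6% to 19.3% of probes in laf6 samples and 13.0% to 15.7% in wild type samples. A ceiling of 100 was reached by 2 to 5 probes in a laf6 sample and by 1 to 3 in a wild type sample. No member was at the ceiling in any sample. A single member, AT1G24240, had a reading of 0, in 1 wild type sample. The number of arrays limits the precision.

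AT1G24240 also stood apart by sample, and is given before the other results for that reason. It read 17.0 in the laf6 sample numbered 2 and 10 in the wild type sample numbered 2. Its other 5 readings lay between 0.0530 and 0.292 in laf6 and between 0 and 0.421 in wild type. Its mean above 1 therefore rests on the samples numbered 2, and its median over the 6 samples was 0.207 in laf6 and 0.288 in wild type. By a median above 1 in place of the mean, 79 of the 83 probes would have been members.

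The 83 members made up 11.9% ± 0.38 of the summed intensity of all probes in laf6 and 13.4% ± 0.16 in wild type (SD, n = 3 replicates each). Per sample, the share ran from 11.4% to 12.6% in laf6 and from 12.8% to 13.7% in wild type, so the samples of the groups did not overlap. Brightness fell off steeply within the set. In laf6, 7 members averaged above 10, 17 above 5 and 33 above 2. In wild type, 10 averaged above 10, 18 above 5 and 39 above 2. As deposited, a mean of at least 1 was held only in wild type by 17 members, and only in laf6 by 2. The whole array was lower in laf6 as deposited, with a median log2 difference, laf6 less wild type, of -0.54 over all probes. These counts of 17 and 2 were not made over all probes, so they cannot be read as particular to the members.

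Around the threshold the means changed gradually. CYN, a cyanase that breaks down cyanate, had a mean over all samples of 1.01, and the means of AT2G37510, an RNA-binding protein, and AT3G20150 were 1.006 and 1.005. Just below lay AT5G53920 at 0.997, which was also among the genes left out by name, AT1G33250 at 0.988 and AT4G07670 at 0.974.

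AT2G27290 and AT4G22830 were far brighter than the other members in both groups. AT2G27290, a protein with a domain of unknown function, had a lowest, median and highest intensity of 50.2, 64.4 and 70.2 over the laf6 samples, against 60.5, 67.5 and 74.5 over the wild type samples. The groups overlapped, though laf6 was the lower at all 6 sample numbers (ratios from 0.809 to 0.971). AT4G22830, a YCF49-like protein, had 43.8, 49.5 and 55.2 in laf6, against 49.6, 68.5 and 90.7 in wild type, and again the deposited readings overlapped. Together these 2 probes held between 25.6% and 29.5% of the members' summed intensity in the laf6 samples and between 29.4% and 31.2% in the wild type samples.

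The members that followed in brightness were of mixed function. AT4G17070, a peptidyl-prolyl isomerase of the kind that helps proteins fold, had 11.96, 32.9 and 36.1 in laf6 (lowest, median, highest), against 16.4, 39.6 and 42.2 in wild type. AT5G38360, of the alpha/beta hydrolase fold, had 26.9, 32.2 and 37.3 in laf6, against 20.4, 24.0 and 28.5 in wild type. AT3G26630, a pentatricopeptide repeat protein of a family that binds organelle RNA, had 16.7, 23.0 and 26.8 in laf6, against 13.4, 16.6 and 19.2 in wild type. In all 3 the deposited readings of the groups overlapped, and none passed the test described below. At each of the 6 sample numbers, however, laf6 was below wild type in AT4G17070, at ratios from 0.731 to 0.863. It was above wild type at all 6 in AT5G38360, at ratios from 1.26 to 1.44, and in AT3G26630, at ratios from 1.23 to 1.39.

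**Figure D1:**
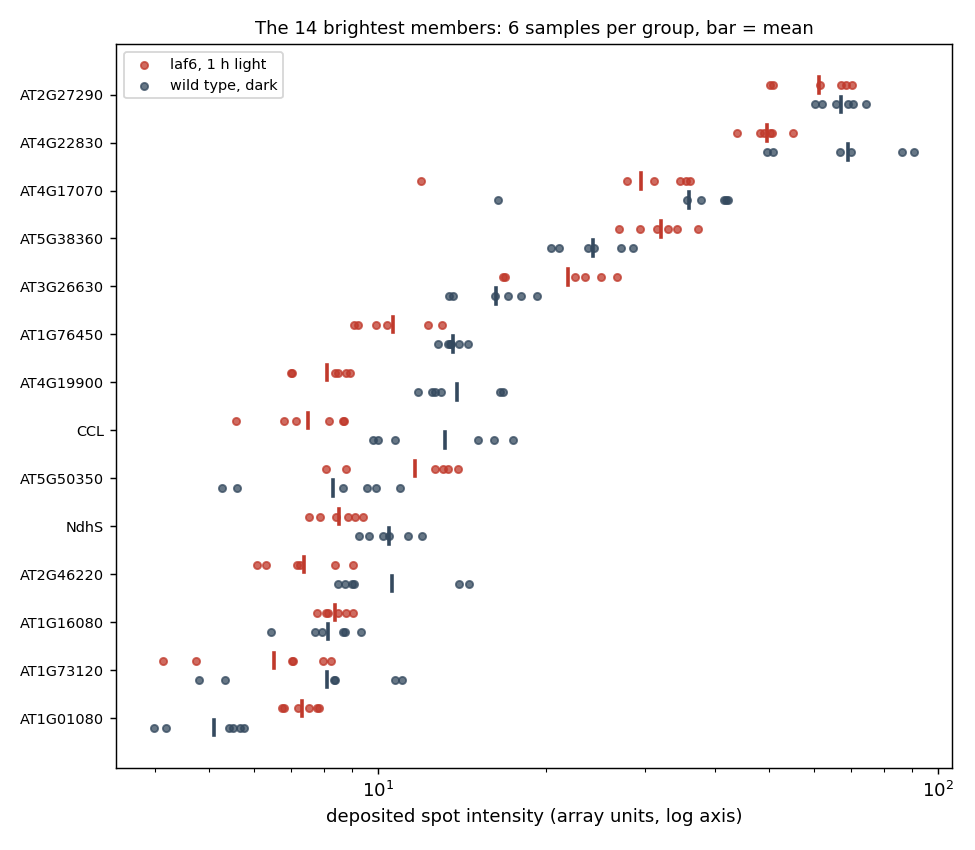
Deposited spot intensity (log axis) of the 14 brightest members, with 6 points per group, laf6 after 1 h of light drawn above wild type in darkness, and a bar at each group mean. AT4G19900, CCL and AT1G01080 are the rows whose groups do not overlap; AT2G27290 and AT4G22830 lie above 40 in every sample of both groups.

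Around an intensity of 10 the members were again of mixed function, with further plastid and photosynthesis genes among them. Other members there were AT4G19900, CCL, AT5G50350 and AT2G46220, with means over all samples of 10.98, 10.36, 9.985 and 9.001. AT1G76450, a thylakoid lumen protein of the PsbP family, averaged 10.7 ± 1.76 in laf6 and 13.6 ± 0.58 in wild type. NdhS, the subunit of the thylakoid NADH dehydrogenase-like complex that takes electrons from ferredoxin, averaged 8.53 ± 0.77 in laf6 and 10.5 ± 1.11 in wild type (SD, n = 3 replicates each). The limma test called neither, with adjusted p-values of 0.253 and 0.400. AT1G16080 averaged 8.39 ± 0.33 in laf6 and 8.14 ± 0.78 in wild type.

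The order of the members was largely shared between the groups. The 10 brightest members had 8 in common, the 15 brightest 13 and the 20 brightest 19. Spearman's rho between the group means was 0.80 across the 83 genes, which share the same arrays and probes and are not independent replicates. In laf6 the order began AT2G27290, AT4G22830, AT5G38360, AT4G17070, AT3G26630, AT5G50350, AT1G76450, NdhS, AT1G16080 and AT4G19900. In wild type it began AT4G22830, AT2G27290, AT4G17070, AT5G38360, AT3G26630, AT4G19900, AT1G76450, CCL, AT2G46220 and NdhS. The 2 groups thus shared their top 5, with places exchanged inside it. Between AT2G27290 and AT4G22830 the spread exceeded the gap in wild type, where they averaged 67.1 ± 5.61 and 69.1 ± 19.2, and their order there is not resolved. In laf6, AT4G22830 read above AT2G27290 in samples 3 and 4 and below it in the others. AT5G38360 and AT4G17070 averaged 32.05 ± 3.83 and 29.5 ± 8.39 in laf6, but their medians of 32.2 and 32.9 had the other order. The laf6 order of these genes is not resolved either.

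Larger moves came lower in the order. Of the 83 members, 41 kept within 5 places, 29 moved by more than 10 and 13 by more than 20. Intensities lay closer together lower in the order, so a small change could move a member far. AT5G66780 was at place 43 in laf6 and 73 in wild type, at a ratio of the laf6 mean to the wild type mean of 1.20. The farthest move up was that of AT1G32730, at place 30 in laf6 and 77 in wild type. AT3G47650, which has the zinc finger of the chaperones that assist Rubisco assembly, was at place 46 in laf6 and 83 in wild type. The farthest move down was that of AT4G05070, of a wound-responsive family, at place 83 in laf6 and 42 in wild type. AT1G13370, a histone H3, was at place 56 in laf6 and 24 in wild type, and AT3G06200, a guanylate kinase of nucleotide metabolism, at place 49 in laf6 and 21 in wild type.

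The groups were compared probe by probe with limma on quantile normalised log2 intensities, the difference being laf6 less wild type, with p-values adjusted over all 3439 probes. Calls were made where that p fell below 0.05. In this fit, which left out the pairing by sample number, 7 of the 83 members were called higher and 4 lower, which is 8.43% and 4.82%. Rose and fell below mean such calls. None of the members' calls held when the same values were fitted with the replicate number as a block. Over all probes 5.5% rose and 4.25% fell, and over the 692 probes with 1 gene 3.18% rose and 4.19% fell. Among the other 362 probes with a mean above 1, 18.5% rose and 11.3% fell, so the members' shares lay below theirs. At an unadjusted p below 0.05 the members counted 11 higher and 20 lower, or 13.3% and 24.1%, against 12.3% and 13.6% of all probes and 26.0% and 28.5% of the other bright probes. The 10 genes left out by name hold 1 rise and 3 falls, and with them the count would be 15 of 93. Of the members, 72 were not called, which does not show that they did not differ.

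With the replicate number as a block, limma called 0 of the 83 members in either direction (0.0872% higher and 0.262% lower over all probes). The lowest adjusted p of a member was then 0.0793, and 12 members higher and 26 lower had an unadjusted p under 0.05. These are 14.5% and 31.3% of the members, against 12.1% and 13.6% of all probes and 24.9% and 29.0% of the other bright probes. With the block and a pseudocount of 0.0545 in place of the floor for zeros, 5 members were called higher and 9 lower, at adjusted p-values between 0.0400 and 0.0485, and 7 of the 11 calls were among them. These are 6.02% and 10.8% of the members, against 5.06% and 3.52% of all probes and 14.6% and 10.2% of the other bright probes. Without the samples numbered 1 and 2 in both groups, a setting chosen after seeing the data, 0 were called either way. Without adjustment 8 members higher and 14 lower passed, or 9.64% and 16.9%, against 10.3% and 10.7% of all probes and 22.1% and 18.2% of the other bright probes.

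**Figure D2:**
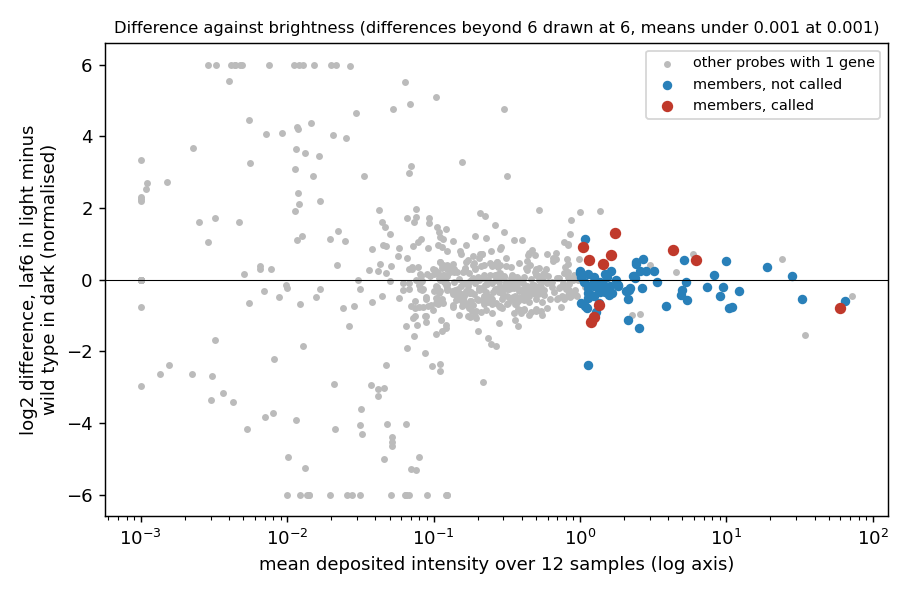
Normalised log2 difference, laf6 less wild type, against the mean deposited intensity over the 12 samples (log axis), for all probes with 1 gene. Blue and red points are the 83 members, red the 11 called by limma; the called members lie between -1.17 and 1.30.

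Of the 7 that rose, AT1G32730 had the largest difference. Its replicates had 2.63, 2.44 and 1.99 in laf6, against 1.28, 1.07 and 0.944 in wild type. Every laf6 sample lay above every wild type sample. In limma its log2 difference was 1.30 ± 0.17 (SE), a 2.46-fold rise (adjusted p = 0.0203, with the block 0.0793), and 1.10 as deposited. Its place among all 3439 probes was 155 to 209 in the laf6 samples and 352 to 572 in the wild type samples. Places also moved where means hardly differed. AT2G37510, at means of 1.001 in laf6 and 1.011 in wild type, held places 391 and 474 by group mean.

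AT3G06570, a kelch-repeat protein, rose at a higher intensity. Its replicates had 5.71, 5.08 and 5.49 in laf6, against 3.65, 3.36 and 2.49 in wild type. The groups did not overlap, and its log2 difference was 0.84 ± 0.12 (adjusted p = 0.0242 in limma, 0.0911 with the block). Among all probes it held places 86 to 101 in laf6 and 131 to 158 in wild type. AT1G01080, an RNA-binding protein with the motif of the chloroplast ribonucleoproteins that stabilise plastid transcripts, had 7.67, 7.54 and 6.77 in laf6, against 5.56, 5.64 and 4.09 in wild type. All laf6 samples lay above all wild type samples, and its log2 difference was 0.56 ± 0.09 (adjusted p = 0.0310 in limma, with the block 0.104).

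AT2G46630 had the lowest adjusted p of any member, 0.0183 in limma. Its replicates had 1.11, 1.37 and 1.35 in laf6, against 0.824, 0.863 and 0.749 in wild type, with no overlap and a log2 difference of 0.91 ± 0.11. With the block its adjusted p was 0.0867 in limma. AT1G78620 is a plastid membrane protein known for feeding phytol into the synthesis of vitamin E and phylloquinone. It had 1.93, 2.16 and 1.70 in laf6, against 1.57, 1.36 and 1.11 in wild type, again without overlap, and its log2 difference was 0.69 ± 0.13 (adjusted p = 0.0470 in limma, with the block 0.137). IAA31, a member of the Aux/IAA family that represses auxin responses, averaged 1.29 ± 0.18 in laf6 and 1.03 ± 0.13 in wild type. AT5G66780 averaged 1.57 ± 0.092 in laf6 and 1.31 ± 0.12 in wild type. The deposited readings of IAA31 and AT5G66780 overlapped between the groups, and only their normalised readings did not. With the block their adjusted p-values in limma were 0.128 for IAA31 and 0.115 for AT5G66780.

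The 4 that fell were AT4G22830 and 3 members with means below 2 in both groups. AT2G36480 had 0.606, 0.624 and 0.701 in laf6, against 1.48, 2.24 and 1.51 in wild type. Its groups were far apart, with a log2 difference of -1.17 ± 0.16 (adjusted p = 0.0246 in limma, 0.0943 with the block), a fall of 2.25-fold. It held places 532 to 710 among all probes in laf6 and 207 to 319 in wild type. AT2G46300, of a family of hydroxyproline-rich glycoproteins, had 0.678, 0.652 and 0.857 in laf6, against 1.72, 2.01 and 1.56 in wild type, and a log2 difference of -1.03 ± 0.14 (adjusted p = 0.0911 with the block in limma). AT5G06010 had 1.02, 0.927 and 0.855 in laf6, against 1.92, 1.78 and 1.60 in wild type. Its groups did not overlap either, and its log2 difference was -0.71 ± 0.10 (adjusted p = 0.0867 with the block in limma).

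AT4G22830 had 49.2, 52.9 and 46.3 in laf6, against 68.5, 88.5 and 50.2 in wild type. It was lower in laf6 in all 3 same-numbered pairs, by a narrow margin in the third. Its log2 difference was -0.79 ± 0.13 (adjusted p = 0.0392 in limma, 0.0972 with the block), but -0.45 as deposited (adjusted p = 0.239) and 0.16 with replicates centred on their medians (adjusted p = 0.636), so its direction depended on the scaling. AT2G27290, which was not called, had log2 differences of -0.58 normalised, -0.14 as deposited and 0.46 centred.

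**Figure D3:**
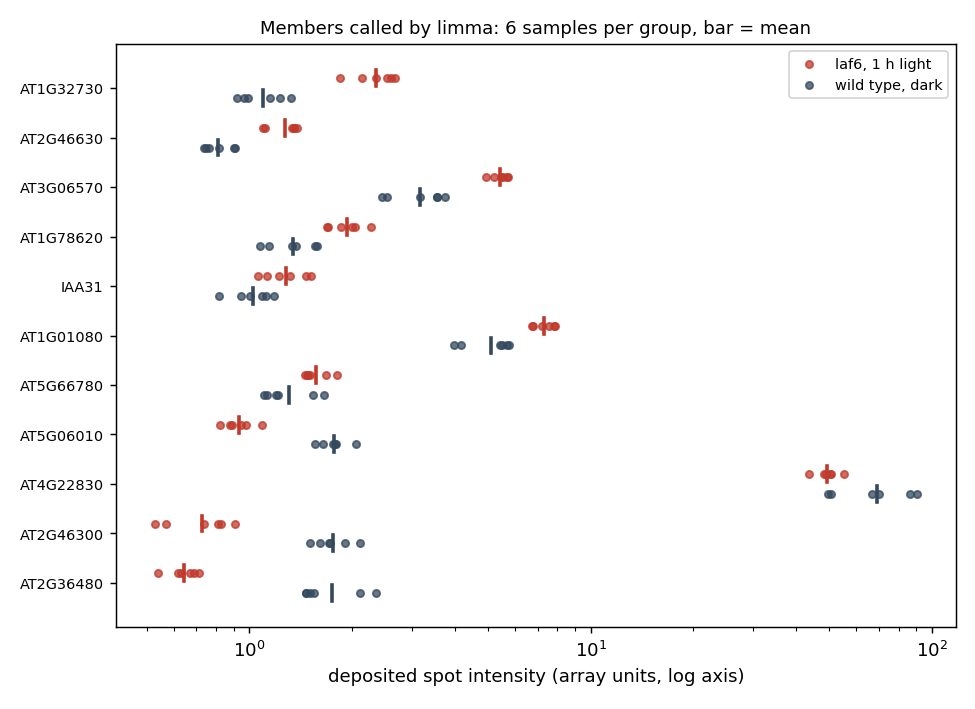
Deposited intensity (log axis) of the 11 called members, ordered by log2 difference, with 6 points per group, laf6 after 1 h of light above wild type in darkness, and bars at the group means. The groups are separate in all rows but IAA31, AT5G66780 and AT4G22830.

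Some members had large differences that limma did not call, with larger standard errors. AT4G05070 had the largest difference of all members. Its replicates had 0.172, 0.720 and 0.193 in laf6, against 1.85, 2.54 and 1.30 in wild type, so the groups did not overlap, and its log2 difference was -2.39 ± 0.60 (adjusted p = 0.0827 in limma). AT3G06200 had 1.42, 1.47 and 1.09 in laf6, against 2.45, 5.72 and 3.08 in wild type, with an adjusted p of 0.0909. AT1G13370 had 1.20, 1.53 and 1.01 in laf6, against 2.42, 4.31 and 2.39 in wild type, with an adjusted p of 0.0656. In both, wild type replicate 2 stood above the other wild type replicates, and the groups did not overlap. AT5G66090 had 1.17, 0.803 and 0.526 in laf6, against 1.995, 1.73 and 1.47 in wild type, also without overlap. Its log2 difference was -0.89 ± 0.30 (adjusted p = 0.148 in limma).

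CCL lay just past the limit, with an adjusted p of 0.0503 in limma. It is a transcript whose stability is known to be under the control of the circadian clock. Its samples ran from 5.57 to 8.71 in laf6, with a median of 7.66, and from 9.81 to 17.4 in wild type, with a median of 12.9. The groups did not overlap, and its log2 difference was -0.79 ± 0.16, as deposited -0.79 and centred on medians -0.19. AT4G19900, a glycosyltransferase, had a similar shape, with 6.995 to 8.90 in laf6 against 11.8 to 16.7 in wild type and an adjusted p of 0.0912.

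On the higher side, AT3G47650 had 1.88, 1.22 and 1.16 in laf6, against 0.884, 0.691 and 0.674 in wild type. The groups did not overlap, and its log2 difference was 1.14 ± 0.25 with an adjusted p of 0.0602 in limma. AT3G09080 had 3.32, 2.89 and 3.39 in laf6, against 2.37, 2.26 and 2.05 in wild type, with an adjusted p of 0.0626. PRA1.B6, a prenylated Rab acceptor of membrane traffic, averaged 6.08 ± 0.63 in laf6 and 4.15 ± 0.47 in wild type, with an adjusted p of 0.17 although its samples did not overlap. With pseudocount and block, limma called 5 of the members described so far as not called. Their adjusted p-values were 0.0432 for CCL, 0.0474 for AT4G19900, 0.0485 for AT1G13370, 0.0422 for AT3G47650 and 0.0442 for AT3G09080. AT4G09620 (0.0422) and AT3G57570 (0.0469), described below, were called this way too. AT3G09080 was also called as deposited (adjusted p = 0.0496).

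Over all members, the normalised readings of the groups did not overlap in 11 that were higher and 18 that were lower in laf6, or 13.3% and 21.7%. The same held for 7.97% and 7.73% of all probes, and for 23.5% and 24.0% of the other probes with a mean above 1. In the deposited readings, the counts were 8 higher and 20 lower, or 9.64% and 24.1%, against 4.54% and 17.9% of all probes and 21.3% and 27.6% of the other bright probes. Same-numbered samples compared as deposited put laf6 above wild type in all 6 numbers for 12 members and below it in all 6 for 43, with 28 mixed. The shares were 14.5% and 51.8% of the members, against 6.89% and 34.2% of all probes and 28.5% and 47.8% of the other bright probes, so the excess of lower members is shared with the array as deposited.

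Grouped by known function, most members were not called. The groups were drawn up for 40 of the 83 members after their values had been seen, so they carry no test. Of 8 plastid and photosynthesis genes, AT1G78620 rose and AT4G22830 fell, and the ratio of the laf6 mean to the wild type mean ran from 0.716 to 1.90 with a median of 0.840. Of 10 RNA-binding and repeat proteins, AT1G01080 rose and none fell in limma, with a median ratio of 0.959. Of 9 metabolic enzymes none was called by limma, and as deposited all had a ratio below 1, as had 62 of the 83 members, with a median of 0.741 against 0.799. After quantile normalisation 3 of the 9 had a positive difference and 6 a negative one. Among them were ATSPS4F, a sucrose-phosphate synthase, at 1.10 ± 0.099 in laf6 and 1.17 ± 0.19 in wild type, and AT-HF of histidine synthesis, at 0.715 ± 0.22 in laf6 and 1.33 ± 0.22 in wild type. Of 4 regulators of transcription, chromatin or hormones, IAA31 rose. XERICO, a RING protein known from abscisic acid responses, averaged 1.62 ± 0.050 in laf6 and 2.62 ± 0.61 in wild type without overlap, but was not called (adjusted p = 0.102 in limma). RAP74, a subunit of the general transcription factor TFIIF, averaged 3.21 ± 0.50 in laf6 and 3.49 ± 0.79 in wild type, with an adjusted p of 0.816.

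Of 4 signalling and calcium proteins and 5 membrane and trafficking proteins, none was called by limma. AT4G32060, a calcium-sensing protein of the mitochondrial uptake system, averaged 4.39 ± 1.04 in laf6 and 6.404 ± 1.23 in wild type, and its deposited readings did not overlap (adjusted p = 0.221 in limma). CML30, a calmodulin-like protein, averaged 1.62 ± 0.11 in laf6 and 2.03 ± 0.43 in wild type. AT4G39690, of the mitochondrial inner membrane organising system, averaged 1.36 ± 0.18 in laf6 and 1.94 ± 0.30 in wild type. AT1G73430, a subunit of the Golgi tethering complex COG, averaged 2.35 ± 0.27 in laf6 and 2.95 ± 0.50 in wild type. These 4 had lower means in laf6, but the deposited readings of CML30 and AT1G73430 overlapped between the groups. The normalised readings of all 4 overlapped. AT3G16310, also of the membrane and trafficking group, averaged 0.905 ± 0.057 in laf6 and 1.375 ± 0.085 in wild type. Its groups overlapped neither as deposited nor normalised. It was called as deposited (adjusted p = 0.0324 in limma) but not after quantile normalisation (0.098).

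Of the other plastid genes, AT5G65220, a protein of the plastid ribosome, averaged 2.70 ± 0.16 in laf6 and 2.41 ± 0.38 in wild type, and its groups overlapped. AT4G09620, of the mTERF family that acts on organelle gene expression, was counted above among the RNA-binding and repeat proteins. It averaged 0.726 ± 0.12 in laf6 and 1.45 ± 0.21 in wild type. Its groups did not overlap, and limma gave an adjusted p of 0.0818. It was called as deposited (0.0370) and with pseudocount and block (0.0422). The 43 members with no role assigned held 4 of the rises and 3 of the falls, at ratios between 0.191 and 2.15.

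The direction of the set as a whole moved with the scaling. The median log2 difference of the 83 members was -0.31 as deposited, -0.18 after quantile normalisation and 0.29 with replicates centred on their medians. The same medians over all 3439 probes were -0.54, -0.08 and 0.06, and over the other 362 bright probes -0.27, -0.15 and 0.33. Members were thus less negative than the whole array as deposited and more negative than it after quantile normalisation. The share of members with a positive difference was 25.3% as deposited, 36.1% normalised and 77.1% centred. Only 21 members were positive and 19 negative in all 3 scalings. Of the 11 calls, 5 were also made as deposited, which were AT1G32730, AT2G46630, AT5G06010, AT2G46300 and AT2G36480. The calls as deposited were 3 higher and 6 lower, or 3.61% and 7.23%, against 3.31% and 10.5% of all probes and 14.6% and 12.2% of the other bright probes.

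**Figure D4:**
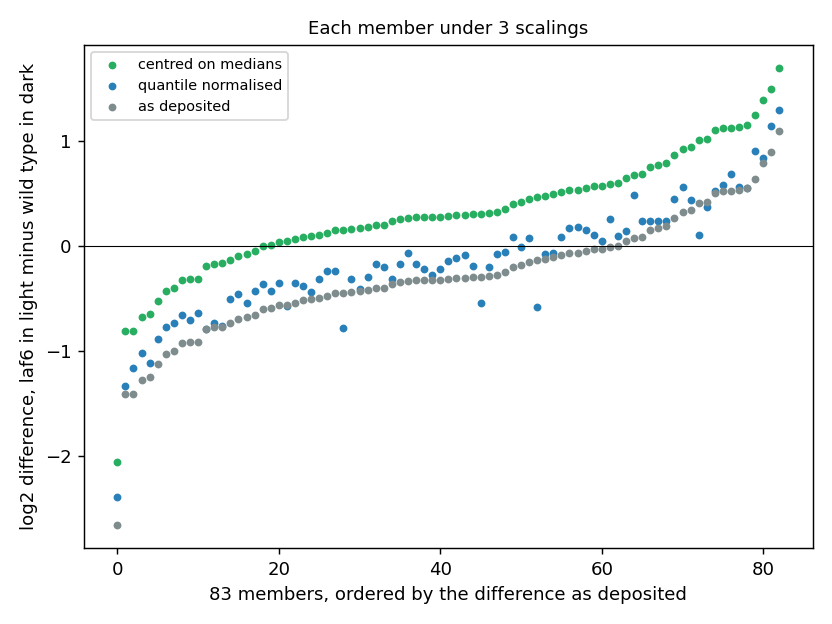
Log2 difference, laf6 less wild type, of each of the 83 members under 3 scalings, ordered by the difference as deposited. Centred values lie above the other 2 for every member, and the share above 0 is 77.1%, 36.1% and 25.3% for centred, quantile normalised and deposited values.

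A few members varied with the sample number more than with the group, and they were singled out after their values were seen. PSB27, a lumen protein of photosystem II assembly and repair, had 0.669 and 0.616 in the laf6 samples numbered 1 and 2, and 2.58 to 3.07 in the other 4. In wild type it had 0.589 and 0.370 in samples 1 and 2, and 3.03 to 3.93 in the other 4. AT3G57570 had 0.0893 and 0.375 in the laf6 samples numbered 1 and 2, and 0.932 to 1.80 in the others, against 0.214 and 0.789 in the wild type samples numbered 1 and 2 and 1.63 to 3.10 in the others. It was nevertheless lower in laf6 at all 6 numbers, at ratios from 0.418 to 0.593. AT4G17070 was likewise lowest in the samples numbered 1 of both groups, and its same-numbered ratios stayed between 0.731 and 0.863. The same-numbered ratios of PSB27 ran from 0.781 to 1.67. With the replicate block, the adjusted p-values in limma were 0.871 for PSB27, 0.0867 for AT3G57570 and 0.113 for AT4G17070. With pseudocount and block AT3G57570 was called, with a log2 difference of -0.60 and an adjusted p of 0.0469.

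**Figure D5:**
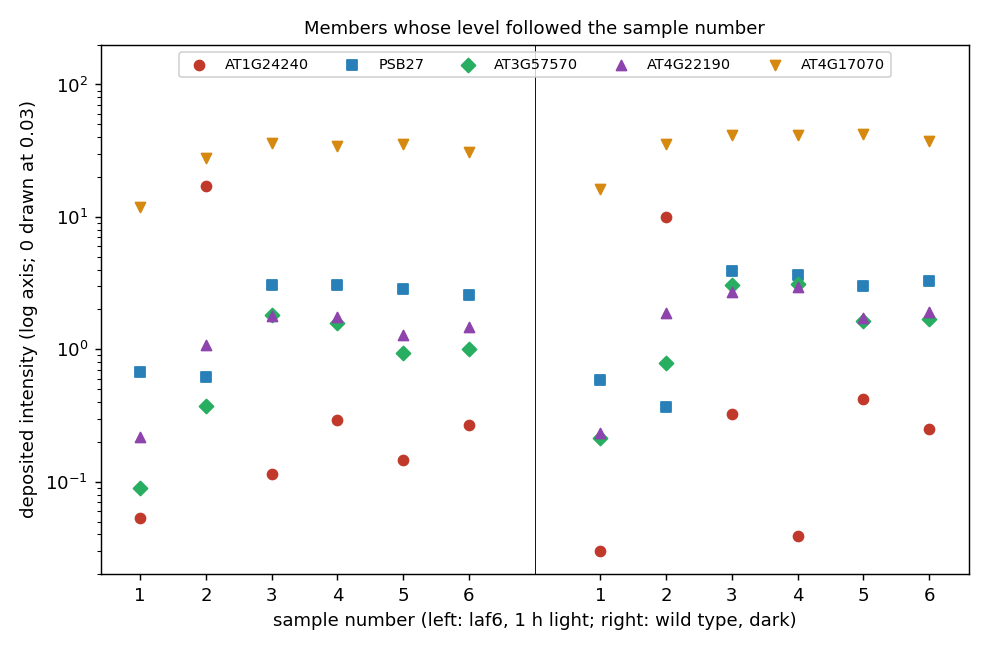
Deposited intensity (log axis, with 0 drawn at 0.03) of 5 members by sample number, laf6 after 1 h of light on the left and wild type in darkness on the right. AT1G24240 is high only in the samples numbered 2, and PSB27 is low in the samples numbered 1 and 2, in both groups.

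Replicate spread of the members, which were chosen as bright, was below that of all probes and close to that of the other bright probes. The median SD of the normalised log2 values over 3 replicates was 0.18 in laf6 and 0.18 in wild type for the members, and 0.31 and 0.29 for all probes. For the other bright probes it was 0.17 in laf6 and 0.16 in wild type.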

How the data were processed

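RNA of 12 samples was measured on an array of 3439 probes. The values deposited by the authors are spot intensities on a linear scale from 0 to 100. For the authors' background correction and scaling, the step was not given in the sources used here. Probes were named by the platform's annotation (1 gene for 692 probes, several for 870, none for 1877), and all 83 members matched the TAIR10.1 gene table, which was used for names only and holds no product names, so the planned grouping by words in product names assigned 1 member. Functions given are general background. A planned search of promoters was not run, as no sequences were used here.

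Samples numbered 1 and 2, 3 and 4, and 5 and 6 of a group were averaged as intensities, and averages still at 0 took the smallest value above 0 (1.33e-05). The replicates were taken to log2, quantile normalised and fitted with limma 3.58.1 in R 4.3.3 (lmFit, eBayes), with Benjamini-Hochberg adjustment over all probes. The fit was tested on simulated data, where it missed most of the smaller and some of the larger changes put in. Over 1361 probes with a mean above 0.3 and no 0, deviations of consecutive samples of a group correlated at 0.169 to 0.422. Those of other pairs within a group correlated at -0.477 to -0.082. Deviations of single samples of different groups correlated at 0.203 to 0.561 with the same number and at -0.37 to 0.29 with other numbers. The values thus do not single out consecutive numbers over same numbers across the groups. Same-numbered averaged replicates of the 2 groups correlated at 0.285 to 0.564, so the numbers were taken as pairing the samples, from the values alone, and the replicate block is printed where it changes a call.

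Named genes are the 15 brightest members of each group, all called members, the 8 largest differences each way, the 3 just inside the threshold and any with a reading at 0; others were chosen after their values were seen. Members, lists and tests were chosen with earlier results of these data known.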

Additional observations from a re-analysis of the deposited data

Results flagged for a closer look

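Over the 36 members named by rule, the 6 samples of each group were checked for a highest or lowest reading far from the others. In 72 groups 4 readings were flagged, a count near the rate of about 1 in 20 groups that chance alone marks. AT1G24240 read 17.02 in the laf6 sample numbered 2 and 10 in the wild type sample numbered 2, with the gap to the nearest reading 0.986 and 0.958 of the whole range. AT4G17070 read 11.96 in the laf6 sample numbered 1 and 16.37 in the wild type sample numbered 1, with gaps of 0.659 and 0.750 of the range. Each far reading had a counterpart at the same number in the other group.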

How the results depend on the processing

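Against 7 members higher and 4 lower, and 189 and 146 probes over the array, limma called 3 and 6 members and 114 and 362 probes as deposited, and 13 and 0 members and 209 and 45 probes with medians centred. Without the dimmest 25% of probes 8 members and 150 probes were lower, with the pseudocount 7 and 209, and with eBayes trend and robust settings 16 (232 probes lower). With the replicate block 0 members were called either way and 3 and 9 probes, and with pseudocount and block together 9 members and 121 probes were lower. The 12 samples unaveraged gave 12 and 25 members and 353 and 421 probes, and with the pair as a random block 12 and 24 members and 305 and 344 probes. The unaveraged fit counts each sample as a replicate. Leaving out each replicate gave 0 to 3 members higher and 0 to 1 lower, and 59 to 114 and 32 to 83 probes, with fewer samples by construction; members called were 0 and 0 without wild type replicates 2 or 3, 0 and 1 without laf6 replicate 2, 1 and 0 without laf6 replicate 1, and 3 and 1 without wild type replicate 1 or laf6 replicate 3. Chosen after seeing the data, leaving out the samples numbered 1 and 2 gave 0 and 0 members and 21 and 30 probes, and scaling on the probes with a mean above 1 gave 4 members higher and 240 probes lower. A mean above 2 would leave 38 members. On normalised values the members' share of the summed intensity was 11.5% in laf6 and 14.1% in wild type.

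The 11 called members kept their sign in each setting except AT4G22830 (0.16 with medians centred), and kept their call in 0 to 11 of 11 by setting. With medians centred, log2 differences turned to 0.044 for AT4G32060, 0.10 for AT2G46220, 0.17 for AT1G51350, 0.24 for AT1G76450, 0.31 for NdhS, 0.31 for AT4G17070, 0.31 for AT1G73120 and 0.46 for AT2G27290. As deposited they turned to -0.011 for AT2G37510, -0.068 for AT3G20150 and -0.20 for CYN, and scaled on bright probes to -0.043 for CYN and 0.019 for AT2G27290. With each replicate left out, AT1G73120 ran from -0.549 to 0.0887 (above 0 without wild type replicate 1 or laf6 replicate 2), AT1G24240 from -1.20 to 2.01 (below 0 without wild type replicate 2 or laf6 replicate 1) and CYN from -0.012 to 0.190 (below 0 without laf6 replicate 3). The cause of these changes was not tested. Signal over background was not used here, so what it limits is unknown.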
